A study of Mus musculus with 12 samples.

Results

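The homeodomain-interacting protein kinases are a family of 4 genes in the mouse, Hipk1, Hipk2, Hipk3 and Hipk4, and each has 1 row among the 23282 gene rows of the deposited RNAseq tables. The family was chosen on Hipk4, whose read count was among the most reduced in HD mice after symptom onset. Its level in that comparison is therefore a description and is given without a test, as are the levels of the other 3 genes in the same comparison. The libraries came from striatum and cortex of R6/2 mice (HD), whose transgene holds exon 1 of human HTT with an expanded CAG repeat, and of normal littermates (WT), to see how expression differs by brain region and by age before and after symptoms appear. Post-symptomatic mice were 13 weeks old and pre-symptomatic mice were 8 weeks old. Each HD group of 1 stage and 1 region had 2 libraries and each WT group had 1, so that 12 libraries were compared. R6/2 mice express a fragment of huntingtin from a transgene beside their own intact genes.

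HIPKs are serine/threonine kinases of the same branch of the kinome as the DYRK and CLK kinases. HIPK1, HIPK2 and HIPK3 are mainly nuclear, bind homeodomain transcription factors and corepressors, and pass on signals from DNA damage, Wnt and TGF-β. HIPK2 is the most studied: it phosphorylates p53 after severe DNA damage and is kept low by the ubiquitin ligases WSB1, SIAH1 and MDM2. HIPK4 lacks the homeobox-interacting region of the others and is known mainly from the testis and brain.

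In the GENCODE M21 annotation of GRCm38, Hipk4 lies on the plus strand at chr7:27523267-27531175, where no annotated gene overlaps it. Pld3, on the minus strand, ends 824 bases beyond it. Hipk1 lies on the minus strand at chr3:103739815-103791563 and Hipk3 on the minus strand at chr2:104426481-104494446. Hipk2 lies on the minus strand at chr6:38694390-38876165, and its start is overlapped by Tbxas1 on the plus strand, which had only 8 to 24 counts per library. Also 4 annotated genes that are not rows of the tables overlap Hipk1, including Gm10964 and the antisense gene Gm15886. Their reads could have been counted with Hipk1.

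The promoter windows of the genes on which the results turn are shown, so that the starts of Hipk4, Hipk2 and Hipk1 can be compared. They run from 250 bases before to 50 bases after the annotated start (RefSeq, GRCm38.p6, 5′ to 3′ on the gene's strand), and capitals mark the motif matches found. The windows are chr7:27523011-27523310 (plus strand) for Hipk4, chr6:38876141-38876440 (minus strand) for Hipk2 and chr3:103791512-103791811 (minus strand) for Hipk1.
Hipk4: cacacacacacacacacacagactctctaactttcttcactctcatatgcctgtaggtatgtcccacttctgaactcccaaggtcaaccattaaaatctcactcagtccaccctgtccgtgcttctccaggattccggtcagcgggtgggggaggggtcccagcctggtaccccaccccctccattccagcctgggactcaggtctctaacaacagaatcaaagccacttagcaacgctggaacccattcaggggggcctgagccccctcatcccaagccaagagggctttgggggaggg
Hipk2: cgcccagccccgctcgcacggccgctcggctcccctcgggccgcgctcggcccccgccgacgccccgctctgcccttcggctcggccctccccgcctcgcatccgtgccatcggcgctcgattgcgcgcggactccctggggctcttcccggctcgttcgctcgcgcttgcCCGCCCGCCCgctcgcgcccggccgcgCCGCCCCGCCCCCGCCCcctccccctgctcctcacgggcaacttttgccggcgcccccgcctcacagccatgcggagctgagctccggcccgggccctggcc
Hipk1: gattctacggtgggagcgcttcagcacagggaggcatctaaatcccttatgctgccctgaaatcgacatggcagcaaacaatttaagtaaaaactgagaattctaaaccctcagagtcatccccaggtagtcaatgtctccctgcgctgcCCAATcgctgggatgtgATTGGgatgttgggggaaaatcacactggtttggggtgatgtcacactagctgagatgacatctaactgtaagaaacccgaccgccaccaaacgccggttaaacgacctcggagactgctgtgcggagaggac
On both strands 5 motifs were searched, namely the cAMP response element TGACGTCA, the GC box GGGCGG, the CCAAT box CCAAT, the TATA box TATAAA and the E-box CACGTG. They occurred in 1.8%, 35.7%, 37.4%, 13.6% and 7.2% of 32851 promoter windows. No match lay in the Hipk4 window, whereas the Hipk2 window held 5 matches of the GC box, some of them touching, and the Hipk1 window held 2 matches of the CCAAT box. The Hipk4 window had a GC content of 56.3% and an observed over expected CpG ratio of 0.18, beside a median of 0.38 over all windows. The ratio was 1.08 for Hipk2, 1.04 for Hipk3 and 0.62 for the Hipk1 window shown. Second annotated starts had a ratio of 0.8 in Hipk1 and 0.05 in Hipk2, the latter below that of Hipk4, and neither held a match. The low ratio and the lack of matches are thus not particular to Hipk4. A match is a run of letters and was not tested as a binding site.

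Library totals lay between 8814386 and 12091201 counts. The ribosomal RNA precursor Rn45s took 10.5% to 15.2% of the counts in HD and 4.32% to 5.62% in WT libraries. Of 8 markers of striatal projection neurons, 8 were higher in striatum, and 6 of 7 markers of cortical excitatory neurons were higher in cortex, in edgeR's quasi-likelihood fit at an adjusted p-value under 0.05. Replicate 2 of pre-symptomatic HD striatum stood apart. Relative to replicate 1, its striatal neuron markers had a median log2 ratio of -1.59, its 7 oligodendrocyte markers one of 2.62 and its 5 markers of thalamus, choroid plexus and ependyma one of 3.87. Results that rest on it are given with and without it. Replicate 2 of post-symptomatic HD cortex had 2963 CPM (counts scaled to TMM-adjusted library size) of the choroid plexus gene Ttr, against at most 4.59 CPM in the other cortical libraries except replicate 1 of the same group, at 66.5 CPM.

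Hipk1 was the most abundant of the 4 genes, with 122 to 215 CPM and 1164 to 2259 counts per library. Hipk2 ranged from 20.9 to 78.2 CPM and Hipk3 from 26.5 to 52.1 CPM. Hipk4 was lowest in every library, with 0.641 to 13.8 CPM. The libraries hold reads from transcript 3′ ends, so these levels were not divided by gene length, and the order between genes is that of 3′ reads.

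**Figure D1:**
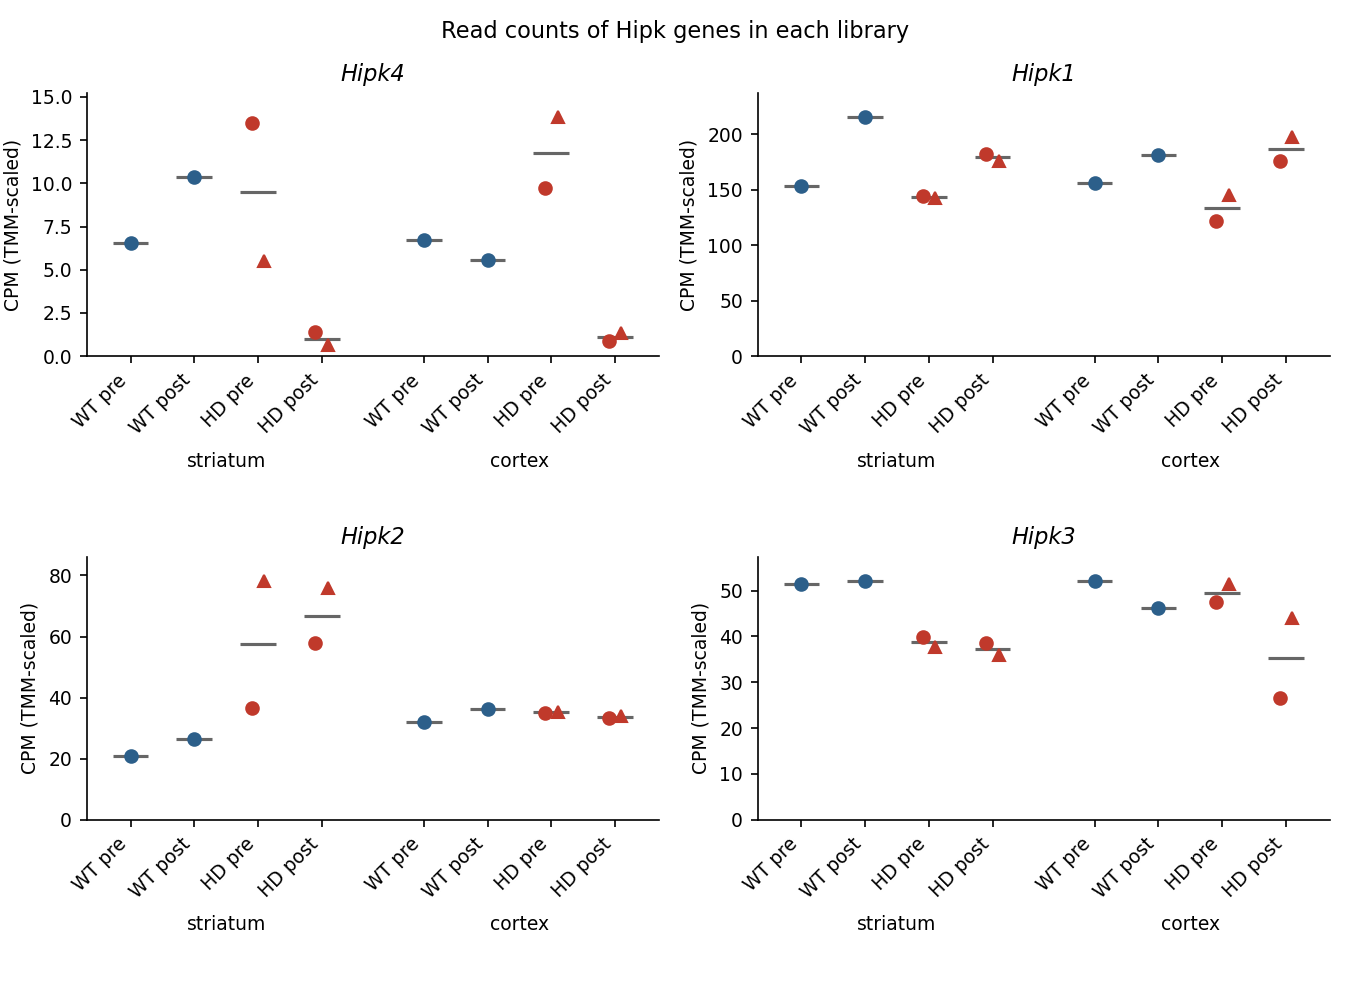
CPM of each Hipk gene in the 12 libraries, by genotype, age and region. Circles are replicate 1, triangles replicate 2, and horizontal bars the group mean. Each panel has its own axis from 0. The 4 post-symptomatic HD libraries are at or under 1.40 CPM for Hipk4, while Hipk2 is above WT in the 4 HD striatal libraries.

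Hipk4 was nearly absent from post-symptomatic HD brain and present in all other groups. In HD striatum it was at 1.40 and 0.641 CPM (15 and 6 counts) after symptom onset, and at 13.5 and 5.49 CPM (115 and 51 counts) before it. In HD cortex the libraries held 0.859 and 1.32 CPM (10 and 15 counts) after onset and 9.74 and 13.8 CPM (93 and 127 counts) before. In WT mice, striatum was at 10.4 CPM and cortex at 5.59 CPM at 13 weeks, and they were at 6.53 and 6.71 CPM at 8 weeks. The 4 post-symptomatic HD libraries were thus all below the other 8, with no overlap in either region. Of all tested genes, 2.96% (435 of 14706) had this order of libraries. The order follows in part from the way the family was chosen, and nothing is read from it.

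The precision of these low values was limited by their counts. By exact 95% Poisson intervals, which cover counting error only, the highest upper bound in a post-symptomatic HD library was 2.31 CPM and the lowest lower bound elsewhere was 4.09 CPM, in replicate 2 of pre-symptomatic HD striatum. Hipk4 was at 1.02 ± 0.535 CPM (SD, n = 2) in post-symptomatic and 9.48 ± 5.64 CPM (SD, n = 2) in pre-symptomatic HD striatum. The corresponding values in HD cortex were 1.09 ± 0.329 CPM (SD, n = 2) and 11.8 ± 2.88 CPM (SD, n = 2). The mean was thus 9.29-fold lower after onset in striatum and 10.8-fold lower in cortex.

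When the 8 HD libraries were fitted with a term for region, the log2 fold change of Hipk4 after onset was -3.29 (standard error, SE, 0.40). Without replicate 2 of pre-symptomatic HD striatum it was -3.52, and it lay between -3.55 and -3.02 when each HD library was left out in turn. In that comparison 6.47% of 13944 genes had an adjusted p-value under 0.05 in edgeR's quasi-likelihood fit. Among 602 of them that were lower after onset and had a mean of at least 5 CPM, Hipk4 ranked 2 by size of change, which restates how the family was chosen and is no test. The microglial gene Fcrls lay just above it with a log2 fold change of -3.62, and Scn4b, the sodium channel subunit beta 4 gene, just below it with -3.12.

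The log2 ratio of mean Hipk4 CPM after to before onset was -3.22 in striatum and -3.43 in cortex. In the fit, the striatal log2 fold change exceeded the cortical one by 0.29 (SE 0.82, adjusted p = 0.9999 in edgeR's quasi-likelihood fit), and it changed sign in 2 of the leave-one-out fits. Of 14392 genes tested for this difference, 0 (0%) passed by edgeR, with 519 at an unadjusted p-value under 0.05 and 17 called by DESeq2. The standard error leaves room for a difference of more than 1 log2 unit in either direction.

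Against WT mice of the same age, Hipk4 had a log2 ratio of mean CPM at 13 weeks of -3.35 in striatum and of -2.36 in cortex. Before symptoms, HD mice were above WT mice by 0.54 in striatum, where the WT library lay between both HD libraries, and by 0.81 in cortex, where both HD libraries lay above it. The fit of all 12 libraries gave -2.89 (SE 0.44) for HD versus WT at the post-symptomatic age and 0.68 (SE 0.43) at the pre-symptomatic age. Both comparisons use libraries on which the gene was chosen, so no p-value is given. Of 14706 genes, 7.36% passed the first comparison and 2.1% the second.

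WT mice played no part in the choice, and in them Hipk4 was higher at 13 than at 8 weeks in striatum and lower in cortex. The log2 fold change of Hipk4 from 8 to 13 weeks in WT mice was 0.27 (SE 0.48, adjusted p = 1 in edgeR's quasi-likelihood fit). In the WT mice age goes with sex, since both 13-week libraries came from a female and both 8-week libraries from a male by Xist and Y-linked counts, and their effects cannot be told apart. In each HD group replicate 1 was a male and replicate 2 a female, so replicate number and sex coincide.

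Sums of pan-neuronal, striatal neuron, cortical excitatory neuron and astrocyte markers were lower after onset in HD mice, as Hipk4 was. Of 6 pan-neuronal markers, 4 fell after onset in HD mice in edgeR's quasi-likelihood fit (Rbfox3, Snap25, Syt1 and Tubb3), with a median log2 fold change of -0.73 over the list, and none of the 6 was at 0 in any library. Their summed level was 2795 to 2801 CPM after onset and 3771 to 4039 CPM before it in HD striatum, and 4779 to 5094 CPM against 7503 to 7743 CPM in HD cortex. The 8 striatal neuron markers summed to 1385 to 1410 CPM in post-symptomatic HD striatum, 2308 to 7331 CPM in pre-symptomatic HD striatum and 7109 to 7733 CPM in WT striatum. Of these 8, 3 fell after onset in HD mice, with a median log2 fold change of -1.11. Of 7 cortical excitatory neuron markers 0 passed, with a median of -0.75. Their sum in HD cortex was 1236 and 1225 CPM after and 1721 and 1676 CPM before onset. Of 6 astrocyte markers, 1 fell after onset (Slc1a2), with a median of -0.62, and their sum was 1762 to 1973 CPM after and 2898 to 3280 CPM before onset in HD striatum, and 2266 to 2482 CPM after and 4410 to 4411 CPM before it in HD cortex. Of 7 oligodendrocyte markers 0 passed, with a median of -0.64. In HD striatum their sum was 4150 and 6952 CPM after onset, and 3178 CPM (replicate 1) and 19770 CPM (replicate 2) before it. In HD cortex it was 2308 and 2638 CPM after and 2238 and 2555 CPM before onset. Of 6 microglial markers 0 passed, with a median of -0.24. Against WT mice at the post-symptomatic age, 4 of 8 striatal neuron and 2 of 6 pan-neuronal markers fell, with medians of -1.67 and -0.42. In that comparison 0 cortical excitatory neuron, astrocyte, oligodendrocyte or microglial markers passed, with medians of -0.20, -0.27, -0.10 and -0.36. Replicate 2 of pre-symptomatic HD striatum had 2308 CPM of striatal neuron markers and 5.49 CPM of Hipk4, both above post-symptomatic HD striatum. This library also had 1683 CPM of thalamus, choroid plexus and ependyma markers. In these bulk tissues, fewer cells of a type and less RNA per cell cannot be told apart, and the part of these marker changes in the Hipk4 values was not tested.

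The neighbour Pld3, a phospholipase D family gene, was at 127 to 338 CPM. Its log2 fold change after onset in HD mice was -0.18 (SE 0.18, adjusted p = 0.610 in edgeR's quasi-likelihood fit) and -0.53 against WT mice at the post-symptomatic age (SE 0.21, adjusted p = 0.153). Prx, on the other side of Hipk4, had at most 8 counts in any library.

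The genes whose profile was most like that of Hipk4 were sought over the 12 libraries, by Pearson's r of log2(CPM + 1) among 10776 genes with a mean of at least 5 CPM. They were Grm3, a metabotropic glutamate receptor (r = 0.96), Ier5l, an immediate early response gene homologue (0.95), Ackr1, an atypical chemokine receptor (0.95), Camk4, a calcium/calmodulin-dependent kinase that phosphorylates CREB (0.94), and Nme3, a nucleoside diphosphate kinase (0.94). The points share stage, genotype and region, so these coefficients are descriptions. In each of the 5 genes, all post-symptomatic HD libraries lay below the other 8, an order that 2.96% of tested genes shared. It follows largely from the way Hipk4 and these genes were picked, and nothing is read from it. Grm3 was at 31.9 to 35.8 CPM in them and at 50.8 to 99.5 CPM elsewhere, Camk4 at 91.7 to 122 CPM and 193 to 430 CPM, and Ier5l at 1.39 to 2.29 CPM and 9.25 to 15.4 CPM.

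Without the post-symptomatic HD libraries, the likeness held best for Grm3 and Camk4. Over the remaining 8 libraries r was 0.86 for Grm3 and 0.83 for Camk4, against 0.66 for Ackr1, 0.66 for Nme3 and 0.47 for Ier5l. Grm3 was also above WT in each pre-symptomatic HD library, with 66.7 and 88.3 CPM in HD and 60.3 CPM in WT striatum, and 82.3 and 99.5 CPM in HD and 55.6 CPM in WT cortex. Of the family, Hipk3 had r = 0.68 with Hipk4 over the 12 libraries, Hipk2 had -0.43 and Hipk1 -0.49.

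**Figure D2:**
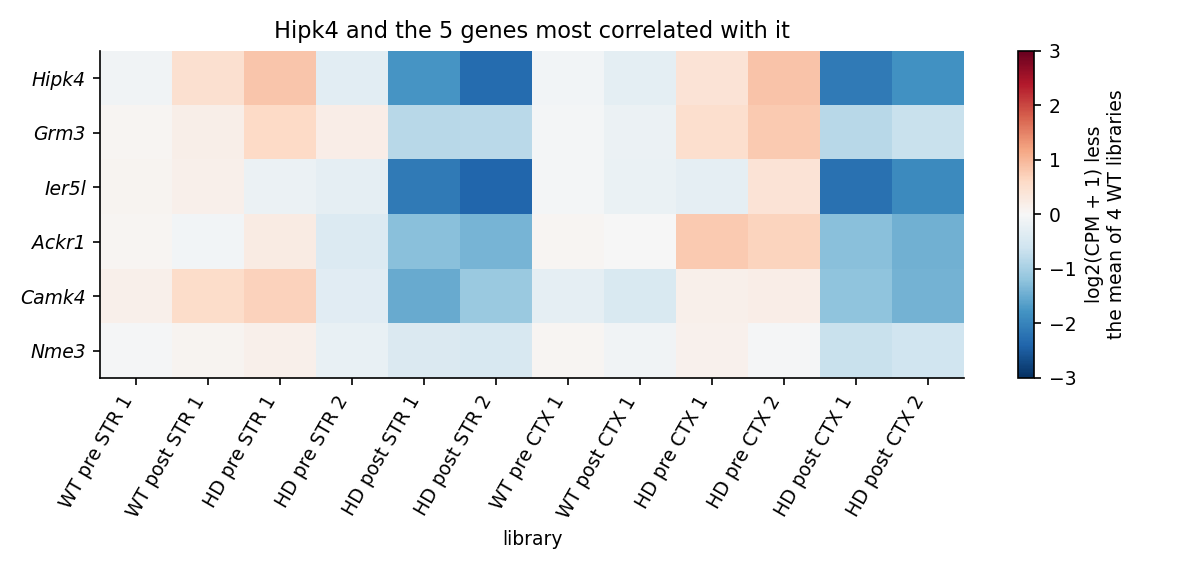
Levels of Hipk4 and the 5 genes most correlated with it in each of the 12 libraries, as log2(CPM + 1) less the mean of the 4 WT libraries (STR, striatum; CTX, cortex; 1 and 2, replicates). Blue is lower and red higher than WT. The 4 post-symptomatic HD columns are blue in all 6 rows, palest in Nme3.

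Hipk2 was higher in HD than in WT libraries in striatum, while its cortical values lay close together. In striatum it was at 57.9 and 75.9 CPM in post-symptomatic HD mice against 26.6 CPM in the WT library of that age, and at 36.6 and 78.2 CPM in pre-symptomatic HD mice against 20.9 CPM. In cortex it was at 33.3 and 34.0 CPM after onset and 35.0 and 35.3 CPM before onset in HD mice, and at 36.2 and 32.1 CPM in WT mice of these ages. All 4 HD striatal libraries lay above both WT striatal libraries, and all 6 cortical libraries lay within 32.1 to 36.2 CPM. Of all tested genes, 13.2% (1943 of 14706) likewise had all 4 HD striatal above both WT striatal libraries, so this order alone is common in these data.

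The mean of Hipk2 in HD striatum was 66.9 ± 12.8 CPM (SD, n = 2) after onset, 2.52-fold that of WT striatum. Before onset it was 57.4 ± 29.4 CPM (SD, n = 2), 2.75-fold that of WT striatum. The upper pre-symptomatic value came from the library with excess oligodendrocyte markers, and replicate 1 alone, at 36.6 CPM, was above both WT striatal values. The fits over both regions gave log2 fold changes of 0.58 (SE 0.40, adjusted p = 0.450) and 0.72 (SE 0.41, adjusted p = 0.480) for HD versus WT at the post- and pre-symptomatic ages in edgeR's quasi-likelihood fit. They were 0.63 and 0.44 without the library with excess oligodendrocyte markers, with adjusted p-values of 0.264 and 0.641. Neither passed the threshold.

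The region difference of Hipk2 had opposite signs in WT and HD mice. The WT fit held 1 library per age and region, and age coincided with sex there. Its p-value therefore leans on the spread estimated from other genes. In WT mice it was lower in striatum than in cortex, at -0.52 on the log2 scale (SE 0.19, adjusted p = 0.0267 in edgeR's quasi-likelihood fit on the 4 WT libraries, where 31.2% of genes passed). In HD mice it was higher in striatum by 0.89 (SE 0.23, adjusted p = 0.0335 on the 8 HD libraries, where 10.9% of genes passed). That value was 0.67 without replicate 2 of pre-symptomatic HD striatum. It was 1.11 without replicate 1, which leaves only the library with excess oligodendrocyte markers in that group. Without any 1 of the other 6 HD libraries it lay between 0.77 and 0.94, with adjusted p-values of 0.0640 to 0.108, and did not pass.

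Tested as a difference, HD versus WT in striatum less that in cortex was 1.38 log2 units for Hipk2 (SE 0.36, unadjusted p = 0.00233, adjusted p = 0.365 in edgeR's quasi-likelihood fit). This comparison was added after the values were seen. Of 14706 genes, 0 (0%) passed it by edgeR, with 1494 at an unadjusted p-value under 0.05 and 64 called by DESeq2, whose adjusted p for Hipk2 was 0.0678. The value was 1.17 without replicate 2 of pre-symptomatic HD striatum (adjusted p = 0.227), but 1.59 without replicate 1 (adjusted p = 0.00431). The same difference was -0.09 for Hipk1, -0.22 for Hipk3 and -0.66 for Hipk4, with adjusted p-values between 0.745 and 0.901.

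Oligodendrocyte and thalamus, choroid plexus and ependyma markers moved with Hipk2 in part of the libraries. The summed oligodendrocyte level was 4150 and 6952 CPM in post-symptomatic HD striatum, 3178 and 19770 CPM in pre-symptomatic HD striatum, and 5006 and 5947 CPM in WT striatum. None of the 7 was at 0 in any library, and 0 of 7 passed in HD versus WT at either age. Replicate 1 of both HD striatal groups had fewer oligodendrocyte counts than both WT striatal libraries and more Hipk2. The 5 markers of thalamus, choroid plexus and ependyma summed to 182 and 141 CPM in post-symptomatic HD striatum, 40.0 and 1683 CPM in pre-symptomatic HD striatum, and 42.2 and 37.4 CPM in WT striatum. None of them passed in HD versus WT at either age, and their median in the difference of HD versus WT between striatum and cortex was 2.21. The part of either marker list in the Hipk2 values was not tested. In cortex, the WT libraries had 3995 and 4222 CPM of oligodendrocyte markers and the HD libraries 2238 to 2638 CPM. The thalamus, choroid plexus and ependyma markers summed there to 28.35 and 22.85 CPM in WT and to between 25.98 and 3006 CPM in HD libraries. Cortical Hipk2 lay within the range given before.

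**Figure D3:**
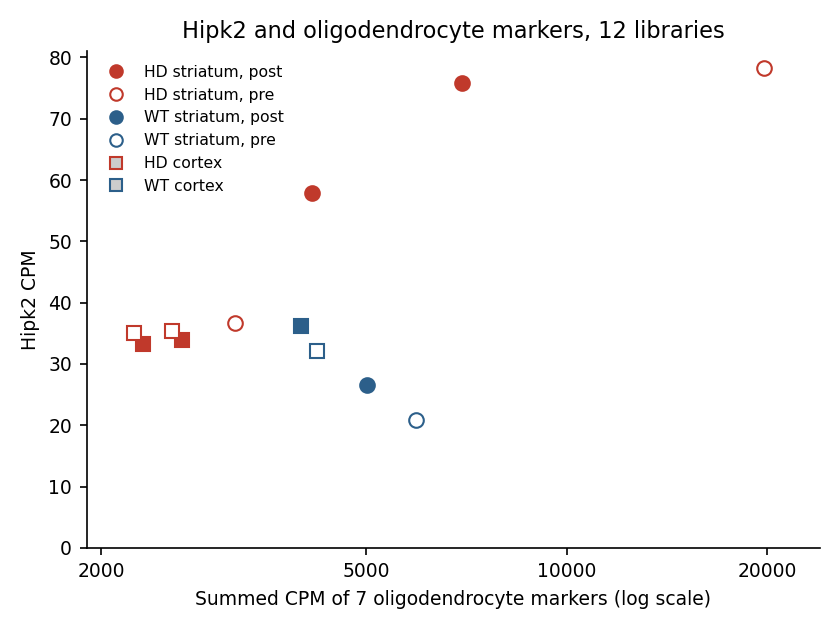
Hipk2 CPM against the summed CPM of 7 oligodendrocyte markers (log axis) in the 12 libraries. Filled symbols are the post-symptomatic and open symbols the pre-symptomatic age; circles are striatum and squares cortex, red HD and blue WT. The HD striatal library at 19770 CPM of markers has 78.2 CPM of Hipk2, while the HD striatal libraries at 3178 and 4150 CPM of markers lie above both WT striatal libraries.

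Between stages of HD mice, the striatal values of Hipk2 overlapped and the cortical values after onset lay just below those before it. The log2 fold change after onset was 0.09 (SE 0.22), and it was 0.31 with replicate 2 of pre-symptomatic HD striatum left out and -0.13 with replicate 1 left out.

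Hipk1 was higher at 13 than at 8 weeks in both genotypes. In HD striatum it was at 182.5 and 175.8 CPM after and 144.1 and 142.8 CPM before onset, and in HD cortex at 176.4 and 197.3 CPM after and 121.9 and 145.6 CPM before. WT striatum held 215.3 CPM and WT cortex 181.8 CPM at 13 weeks, and 153.7 and 156.1 CPM at 8 weeks. All 6 libraries of the older age lay above all 6 of the younger, an order that 0.204% of tested genes (30 of 14706) shared. The HD values were used in choosing the family, and the order was set after the values were seen. Nothing is therefore read from this share.

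The log2 fold change of Hipk1 was 0.41 (SE 0.11) after onset in HD mice, a 1.33-fold level. In WT mice it was 0.36 from 8 to 13 weeks (SE 0.15, unadjusted p = 0.0348, adjusted p = 1 in edgeR's quasi-likelihood fit), a 1.28-fold level that did not pass. In the WT age comparison, 0.0136% of 14706 genes (2) passed, and it rests on 1 library per age and region. HD versus WT, Hipk1 had log2 fold changes of -0.11 (adjusted p = 0.667) at the post-symptomatic and -0.16 (adjusted p = 0.638) at the pre-symptomatic age by the same test, with a standard error of 0.13 in each.

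Hipk3 was somewhat lower in HD than in WT mice, by amounts that did not pass the test. In striatum it was at 38.6 and 35.9 CPM in post-symptomatic HD against 52.1 CPM in WT mice, and at 39.8 and 37.7 CPM in pre-symptomatic HD against 51.4 CPM. In cortex it was at 26.5 and 44.1 CPM against 46.1 CPM, and at 47.6 and 51.5 CPM against 52.1 CPM. Each of the 8 HD libraries lay below the WT library of its region and age, an order that 6.17% of tested genes (907 of 14706) shared. The 4 HD striatal libraries were close together, and the 2 post-symptomatic cortical libraries were the most apart.

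The log2 fold change of Hipk3 in HD versus WT was -0.44 (SE 0.20, unadjusted p = 0.0467, adjusted p = 0.215) at the post-symptomatic age and -0.23 (SE 0.20, adjusted p = 0.664) at the pre-symptomatic age in edgeR's quasi-likelihood fit. Without Rn45s, whose share was higher in HD libraries, the values were -0.44 and -0.24. After onset in HD mice the log2 fold change of Hipk3 was -0.26 (SE 0.18), and in WT mice from 8 to 13 weeks it was -0.07 (SE 0.23, adjusted p = 1).

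Over all 12 libraries, none of the 4 genes passed the test between striatum and cortex. The log2 fold changes were 0.05 for Hipk1, 0.40 for Hipk2, -0.07 for Hipk3 and 0.02 for Hipk4, with standard errors of 0.09, 0.27, 0.13 and 0.30 and adjusted p-values of 0.731, 0.331, 0.780 and 0.974 in edgeR's quasi-likelihood fit. Of 14706 genes, 20.6% passed. An exact two-sided permutation test of region within the 4 groups of genotype and stage gave p = 0.444, 0.750, 0.889 and 0.889, where 0.0139 is the smallest p that its 144 arrangements allow. For Hipk2 the pooled value joins the opposite differences in WT and HD mice given before.

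**Figure D4:**
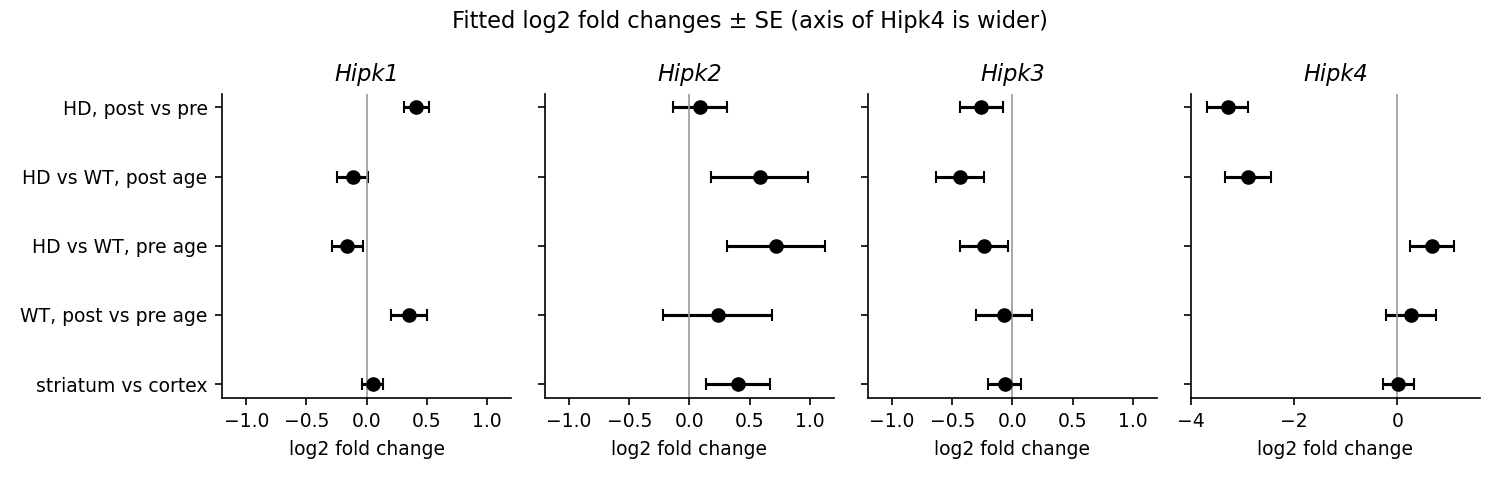
Fitted log2 fold changes of the 4 Hipk genes with standard errors in 5 comparisons. The axis of Hipk4 is wider than that of the other 3. Hipk4 lies at -3.29 after onset and -2.89 against WT mice at the post-symptomatic age, while no other value exceeds 0.72 in size.

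Some of the genes that regulate HIPKs, are their targets or encode related kinases passed in HD versus WT mice. The lists were drawn up with earlier results of these data known. Of 23 measured regulators of HIPKs (of 24 listed), the median log2 fold change in HD versus WT at the post-symptomatic age was 0.13, beside 0.01 over all genes. Map3k5, the stress kinase ASK1, fell by 1.001 in that comparison (SE 0.17, adjusted p = 0.00600 in edgeR's quasi-likelihood fit), and after onset in HD mice it fell by 0.80 (SE 0.14, adjusted p = 0.0111). It was at 21.0 and 22.4 CPM in post-symptomatic HD and 38.4 to 46.4 CPM in the other striatal libraries. No regulator passed in HD versus WT at the pre-symptomatic age, and the ubiquitin ligase genes Wsb1, Siah1a, Siah1b, Siah2 and Mdm2 passed in neither HD comparison with WT.

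Of 27 measured substrates and transcription partners of HIPKs (of 28 listed), 2 rose and 1 fell in HD versus WT at the post-symptomatic age, or 11.1% beside 7.36% of all genes, with a median log2 fold change of 0.18. Smad3, a transcription factor of TGF-β signalling, fell by 1.26 (SE 0.19, adjusted p = 0.00360 in edgeR's quasi-likelihood fit). It was at 30.5 to 35.5 CPM in all post-symptomatic HD and 40.1 to 80.6 CPM in the other libraries. Crebbp, a histone acetyltransferase, rose by 0.61 (SE 0.17, adjusted p = 0.0455). Pou4f1, a homeodomain factor of sensory neurons known to bind HIPK2, rose from at most 0.524 CPM in every other library to 4.10 and 6.09 CPM in post-symptomatic HD striatum and 24.3 and 12.7 CPM in post-symptomatic HD cortex (adjusted p = 0.00348). Its rise was known before the list was drawn up. None of the 27 passed at the pre-symptomatic age, while after onset in HD mice 1 of 26 rose (Pou4f1) and 1 fell (Smad3), or 7.69% beside 6.47% of all genes.

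Of 9 measured DYRK, CLK and PRP4 kinase genes (of 10 listed), 2 rose in HD versus WT at the post-symptomatic age, or 22.2% beside 7.36% of all genes, and none fell, with a median log2 fold change of 0.29. Prpf4b, a kinase of pre-mRNA splicing, rose by 1.41 (SE 0.21, adjusted p = 0.00323 in edgeR's quasi-likelihood fit) and, at the pre-symptomatic age, by 1.27 (SE 0.21, adjusted p = 0.0109). It was at 93.2 to 171 CPM in the 8 HD and 44.2 to 53.7 CPM in the 4 WT libraries. The share of all tested genes with such an order was not counted. Clk4, which phosphorylates splicing factors, rose by 0.80 (SE 0.20, adjusted p = 0.0284) at the post-symptomatic age. None of the 9 passed after onset in HD mice.

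Between regions, members of all 3 lists differed, beside 20.6% of all genes. Of 23 regulators, 6 were higher and 2 lower in striatum, or 34.8%, with a median log2 fold change of 0.00. By edgeR's quasi-likelihood test, Nlk, a Wnt-pathway kinase, was lower by a log2 fold change of -1.22 (adjusted p = 7.90e-05) and Map3k5 by -0.89 (adjusted p = 0.000242). Kat2b, a histone acetyltransferase (0.83), Wsb1, an adaptor for HIPK2 degradation (0.74), and Siah1b, a ubiquitin ligase (0.60), were higher. Of 27 substrates and partners, 4 were higher and 1 lower, or 18.5%, and the homeodomain factor Meis1 (2.89), Foxo1 (2.33), Myb (2.22) and the corepressor Tle1 (0.63) were the higher ones. Of 9 related kinases, 2 were higher (Clk1, 0.74, and Clk4, 0.60) and 2 lower (Dyrk3, -1.82, and Dyrk1a, -0.26), or 44.4%.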

How the data were processed

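RNAseq was performed on striatum and cortex of R6/2 mice and WT littermates with the Lexogen QuantSeq kit, which reads transcript 3′ ends. The authors deposited raw counts of reads per gene symbol, 1 table per library, without normalization. The submitters' processing notes name Bowtie2, bedtools and mm10 without a version. The annotation, the counting rule and the use of strand are not given in the sources used here. Of 23282 rows, 4306 held no count and 44 repeated a symbol. In every HD group the replicates differed beyond counting noise (chi-square per degree of freedom 6.98 to 73.0). The labels do not say which libraries share a mouse, so p-values measure only the spread between libraries. The 2 libraries of each HD group differed in sex by Xist and Y-linked counts. Their spread therefore holds differences between mice and sexes, and part of it may be technical.

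Groups were taken from the sample titles. CPM are counts scaled to TMM-adjusted library sizes. Tests used edgeR 4.0.16 in R 4.3.3 (the quasi-likelihood test with robust fitting, TMM and filterByExpr at a minimum of 10 counts), adjusted by Benjamini and Hochberg over all genes tested, at a threshold of 0.05. The HD stages were compared over 8 HD libraries with region as a term; HD against WT, age in WT and region over all 12 libraries with 4 groups of genotype and stage. Each WT age has 1 library per region. Alternatives were DESeq2 1.42.0, upper-quartile normalization, other filters, a replicate block, limma 3.58.1 voom, leaving out Rn45s and leaving out each HD library. On counts drawn with 200 genes changed by 1.5 log2 units, edgeR recovered 173 (of 13714 genes, HD stages), 161 (of 14392, HD versus WT), 188 (of 14394, region) and 7 (of 14103, difference of the onset change between regions), with 5.46%, 5.85%, 5.05% and 36.4% of its calls false. DESeq2 had 16.8%, 20.0% and 18.8% false in the first 3.

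The members and lists were chosen with earlier results of these data known. Besides the 4 genes, the text names list genes that passed a comparison (up to 5 per list and comparison by size), the 5 genes most correlated with Hipk4 and neighbouring genes. Fcrls, Scn4b, Ttr and the ubiquitin ligase genes were named after their values were seen. Positions were read from GENCODE M21 and promoters from RefSeq, in GRCm38. One listed gene is not reported here, and the count of HIPK regulators that passed in HD versus WT at the post-symptomatic age is left out with it.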

Additional observations from a re-analysis of the deposited data

Results flagged for a closer look

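For Hipk2 and Hipk4, groups moved in opposite directions under the same contrast. Each value here is a difference of 2 log2 ratios of mean CPM between libraries, with no test of that difference by region or age. HD versus WT at the post-symptomatic age, Hipk2 had 1.33 in striatum and -0.11 in cortex, a difference of 1.44. Striatum versus cortex, Hipk2 had 0.99 in HD and -0.45 in WT mice at the post-symptomatic age, also a difference of 1.44, and 0.71 and -0.62 at the pre-symptomatic age, a difference of 1.33. The pre-symptomatic value includes the HD striatal library with excess oligodendrocyte markers. In cortex, HD versus WT for Hipk2 was -0.11 at the post-symptomatic and 0.13 at the pre-symptomatic age, a difference of -0.24, and the change from the younger to the older age was -0.06 in HD and 0.17 in WT mice, again a difference of -0.24. These 2 differences use the same 4 group means and are small.

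HD versus WT in cortex, Hipk4 had -2.36 at the post-symptomatic and 0.81 at the pre-symptomatic age, a difference of -3.17. From the younger to the older age in striatum, Hipk4 had -3.22 in HD and 0.67 in WT mice, a difference of -3.89. Both rest on the libraries on which Hipk4 was chosen, and the WT values on 1 library per age and region. These differences were not tested.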

How the results depend on the processing

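Hipk4 kept its direction after onset and against WT mice at the post-symptomatic age under all 14 alternatives that gave a value. The gene was chosen for its large fall after onset, so the kept direction is a description and no test. Requiring 1 CPM or more in every library removed Hipk4. DESeq2 gave it no adjusted p for the difference of the onset change between regions. The region values are near 0 or differ by genotype and reversed most often. Hipk2 was at -0.52 in WT alone and at 0.89, past the threshold, in the 8 HD libraries alone. Hipk3 was at 0.088 in WT alone, and Hipk4 was at -0.20 in HD alone, -0.012 with the replicate block and -0.031 with voom and a random mouse block. The same replicate numbers occur in striatum and cortex and were not taken as pairs, since the labels do not say what they mark, although replicate 1 was male and replicate 2 female throughout the HD groups. Deviations of same-numbered striatum and cortex correlated by 0.27 after and 0.14 before onset. Between HD mice of different ages, those of replicate 1 correlated by 0.35 in striatum and 0.08 in cortex. The values thus do not show which libraries share a mouse. The block changed no call of a Hipk gene among the tests given here that were refitted with it, where none had passed. The fits of WT alone and of HD alone, where Hipk2 passed, were not run with the block. For age in WT the block moved the genes called from 2 to 5, or to 0 with voom. The comparison of HD versus WT between regions and the fit of HD alone were chosen after seeing the data. So were the orders of libraries whose shares of all tested genes are given.

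With DESeq2, the genes called were 1680 in place of 902 (HD stages), 1813 in place of 1082 and 674 in place of 309 (HD versus WT, post- and pre-symptomatic age), 17 in place of 0 (onset change between regions), 11 in place of 2 (age in WT) and 64 in place of 0 (HD versus WT between regions). Without a filter, 1 gene was called for the onset change between regions. The cause was not tested. Leaving out single HD libraries gave 211 to 1517 calls for HD stages, with 211 without either replicate of post-symptomatic and 213 without either of pre-symptomatic HD cortex, 350 and 500 without replicates 1 and 2 of post-symptomatic HD striatum, and 1482 and 1517 without those of pre-symptomatic HD striatum. It gave 628 to 1834 for HD versus WT after onset (628 and 634 without replicate 1 of post-symptomatic HD striatum or cortex, 1834 without replicate 2 of pre-symptomatic HD striatum). The range was 101 to 444 before onset (118 and 101 without replicates 1 and 2 of pre-symptomatic and 192 without replicate 1 of post-symptomatic HD cortex). It gave 0 to 168 for the onset change between regions, 0 to 5 for age in WT and 0 to 576 for HD versus WT between regions, where the highest value of the first and last came without replicate 1 of pre-symptomatic HD striatum. For the first it was 153 without replicate 2. Log2 fold changes ranged from -0.13 to 0.31 (Hipk2, HD stages), -0.16 to 0.013 (Hipk3, region), -0.13 to 0.23 (Hipk4, region), -0.25 to 0.0048 (Hipk1), -0.14 to 0.93 (Hipk2) and -0.39 to 1.04 (Hipk4, all 3 for the onset change between regions), and 1.17 to 1.59 (Hipk2, HD versus WT between regions). Hipk4 had 6 to 15 counts in post-symptomatic HD libraries, which limits the size of its fold change.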
